A study of Drosophila melanogaster with 3 samples.

Results

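The chemosensory receptor genes of Drosophila melanogaster were examined for binding of Ultraspiracle (USP) in whole larvae. Members were the protein-coding genes of the Ensembl BDGP6 annotation whose symbol is Or, Gr or Ir followed by digits and a letter. This gave 59 odorant receptor (Or) genes, 60 gustatory receptor (Gr) genes and 60 ionotropic receptor (Ir) genes, 179 of 13945 protein-coding genes on the chromosome arms. The rule leaves out Orco, the Or coreceptor, whose symbol has no number. Chromatin came from larvae at the wandering stage of the third instar, with both sexes pooled, of the strain usp-GFP, which carries usp fused at its C terminus to eGFP, and was precipitated with an antibody against GFP. There was 1 group of 3 biological replicates, with no other genotype, stage or treatment. The labels do not say what drives the fusion or whether the animals kept an untagged usp, and they give the age of the animals as unknown.

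USP, related to the RXR proteins of vertebrates, binds DNA together with EcR as the receptor for the moulting hormone ecdysone. Ors are membrane proteins that form odour-gated ion channels with Orco. Grs respond to sugars, bitter compounds or carbon dioxide, and Irs, relatives of ionotropic glutamate receptors, serve smell, taste, temperature and humidity sensing with coreceptors such as Ir25a. Most of these receptors are made in few sensory neurons. In whole larvae, a site bound in few cells and a site bound weakly in many cannot be told apart.

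A gene was called bound when the summit of a peak in the authors' list of optimal peaks lay in its body or within 1000 bp upstream. That list had passed a threshold on the irreproducible discovery rate (IDR) and held 11195 peaks, with a median deposited signal of 746 and a range from 365 to 47801. Only 6 of the 179 receptor genes were bound (3.35%), against 35.8% of all protein-coding genes (4990 of 13945). By family, 1 of 59 Or genes (1.69%), 2 of 60 Gr genes (3.33%) and 3 of 60 Ir genes (5.00%) were bound. The bound genes were Or67a, Gr63a, Gr97a, Ir60e, Ir68a and Ir85a.

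The DNA is shown at 4 of the summits of these genes, those of Or67a, Ir68a, Gr63a and Ir85a. The Gr97a summit, which lay in a transcribed leader, and the Ir60e summits were left out. The printed windows are therefore not an even sample of the summits of bound genes. The sequences are from the plus strand of the RefSeq copy of the release 6 genome (dm6). Each starts 100 bases before the summit and reaches up to 100 bases beyond it, and is shortened where it would hold more than 30 bases of a transcribed leader. Capitals mark the hexamers AGGTCA or AGTTCA, and likewise GGGTCA or GGTTCA, on either strand, which are single binding words of the nuclear receptor type. The Or67a window is chr3L:9528890-9529090, that of Ir68a chr3L:11233668-11233868, that of Gr63a chr3L:3896755-3896899 and that of Ir85a chr3R:8793854-8793977.
Or67a: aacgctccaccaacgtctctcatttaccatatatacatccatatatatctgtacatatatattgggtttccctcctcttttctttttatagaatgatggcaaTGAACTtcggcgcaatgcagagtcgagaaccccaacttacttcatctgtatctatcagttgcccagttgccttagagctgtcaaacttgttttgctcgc
Ir68a: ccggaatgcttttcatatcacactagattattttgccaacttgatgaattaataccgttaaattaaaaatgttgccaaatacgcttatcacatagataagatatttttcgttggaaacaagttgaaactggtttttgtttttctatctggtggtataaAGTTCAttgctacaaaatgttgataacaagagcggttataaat
Gr63a: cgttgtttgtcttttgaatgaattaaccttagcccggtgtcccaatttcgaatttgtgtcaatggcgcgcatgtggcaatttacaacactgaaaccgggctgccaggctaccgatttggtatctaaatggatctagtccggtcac
Ir85a: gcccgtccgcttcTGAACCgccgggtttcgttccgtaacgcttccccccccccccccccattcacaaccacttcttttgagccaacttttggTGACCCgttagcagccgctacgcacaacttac

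The Or67a window held TGAACT starting 2 bp after the summit, and the Ir68a window held AGTTCA starting 58 bp after it. The Ir85a window held TGAACC starting 87 bp before the summit and TGACCC starting 8 bp before it. The Gr63a window held none of these words. The windows of 201 bp at the Gr97a summit and at the 2 Ir60e summits, not printed, also held none of them. Such a word occurred in 32.7% of the windows of 201 bp around all IDR summits (3661 of 11195) and in 26.5% of those around the weaker pooled summits. A match describes letters and not a binding site.

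Or67a, an odorant receptor of the adult antenna, carried the strongest peak of the families. Its summit at 3L 9528990 lay 77 bp upstream of the annotated start of the gene, which runs on the plus strand from 9529067 to 9531386. It ranked 854 of 11195 with a deposited signal of 3042, within the top 7.63% of the list. In the replicates' own lists its signal was 824, 995 and 1281 and its rank 1143, 641 and 890 in replicates 1, 2 and 3. The 3 replicates placed the summit within 7 bp of the pooled position. The pooled list was derived from replicates 2 and 3, so only replicate 1 is separate from it. The nearest start of another protein-coding gene, CG33700, was 3446 bp away.

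Ir68a, which acts in moist air sensing together with Ir25a and Ir93a, was the only receptor gene with an IDR summit inside its body, where 23.2% of protein-coding genes had one. The summit at 3L 11233768 lay 2450 bp inside the gene, which runs on the minus strand from 11232972 to 11236218, and overlapped no annotated exon. It ranked 3476 with a signal of 1116. The replicates gave signals of 410, 271 and 451 at ranks 3027, 4088 and 3769. The nearest start of another protein-coding gene was 17989 bp off. A second, weaker summit at 11236074, 144 bp inside the gene in its transcribed leader, ranked 14073 in the pooled list with a signal of 263, below the threshold.

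Gr63a encodes, with Gr21a, the receptor for carbon dioxide. Its summit at 3L 3896855 lay 252 bp upstream of the gene but only 45 bp from the start of Lamtor4, a subunit of the Ragulator complex at the lysosome. It ranked 8550 with a signal of 496. The signal was 187, 127 and 207 in the replicates, at ranks 7749, 9223 and 9030. The IDR summit nearest to the start of Gr21a was 44801 bp away.

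Gr97a and Ir60e, for which no ligand is given here, also had their summits beside another gene. The Gr97a summit at 3R 26967130 lay 645 bp upstream of Gr97a and 200 bp from the start of CG5521, in that gene's transcribed leader, and ranked 8148 with a signal of 520. The best summit in the Gr97a region had a signal of 177, 125 and 227 and a rank of 8189, 9342 and 8236 in replicates 1 to 3, but in replicate 2 the summit nearest to the pooled position ranked only 17560. The stronger of the 2 Ir60e summits lay on 2R at 24532002, 730 bp upstream of Ir60e and 110 bp from the start of CG13585, and ranked 3902 with a signal of 1020. It had signals of 350, 248 and 450 in the replicates. The other Ir60e summit at 24532202 ranked 9064 and lay 90 bp from the start of CG13585.

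Ir85a, also of no stated ligand, sat at the edge of the list. Its summit at 3R 8793954 was 730 bp upstream of Ir85a, inside an intron shared by Pif1A and Pif1B and 1407 bp from their start. It ranked 11121 of 11195 with a signal of 369. The replicates gave signals of 106, 102 and 169 at ranks 12838, 11206 and 10813. Replicates 1 and 2 thus placed it outside the top 11195 of their own lists. The strongest receptor gene summit below the threshold was that of Ir54a, at rank 13486 with a signal of 280.

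**Figure D1:**
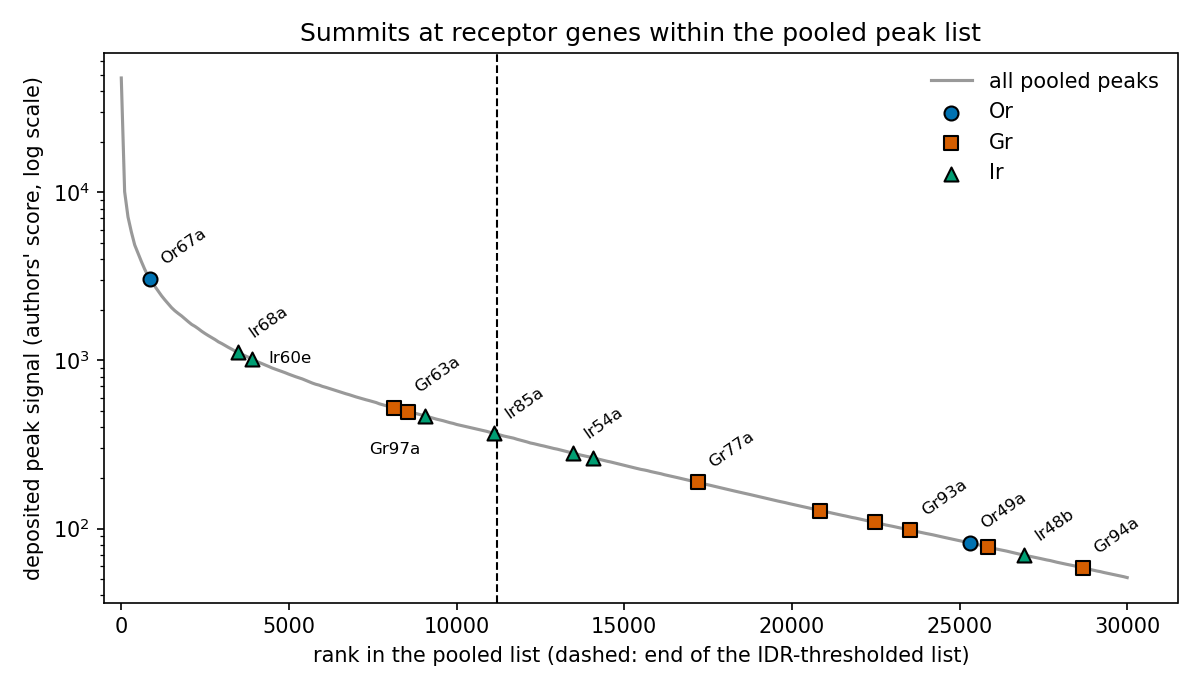
Deposited signal of each pooled peak (log scale) against its rank in the pooled list of 30000 peaks, with symbols at summits assigned to an Or, Gr or Ir gene and each gene named at its strongest summit. Or67a at rank 854 stands well ahead of Ir68a at 3476, and the dashed line marks the end of the IDR-thresholded list at 11195.

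Several of the summits lay beside other genes. For Gr63a, Gr97a and Ir60e, 3 of the 6 bound genes, every summit lay nearer to the start of another protein-coding gene than to their own, against 20.9% of all bound protein-coding genes (1043 of 4990). Only Or67a and Gr63a, 2 of 179 (1.12%), had a summit within 500 bp of their own start, against 28.0% of protein-coding genes. Without summits within 500 bp of the start of any gene outside the families, Or67a, Ir68a and Ir85a remained bound, 3 of 179. The same filter left 14.9% of protein-coding genes bound. For genes outside the families it also removed summits at their own start, so these shares are unlike measures.

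**Figure D2:**
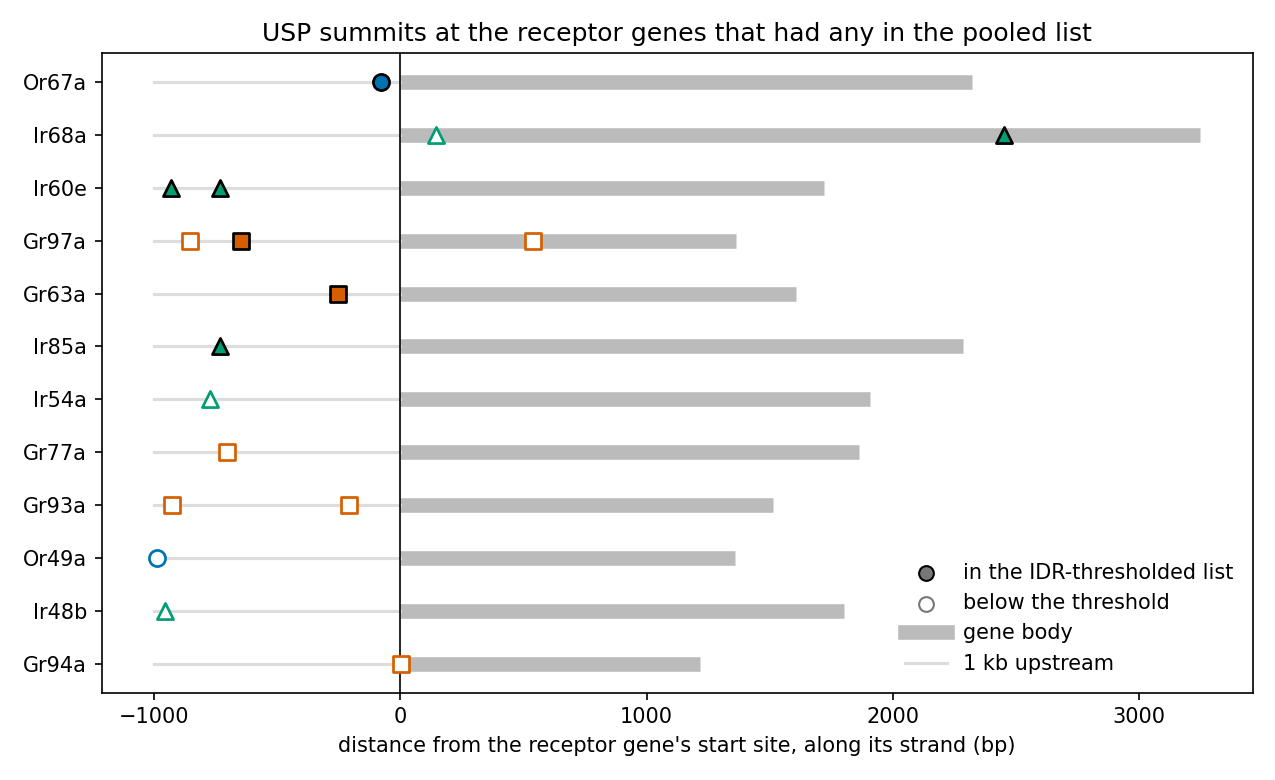
Position of every pooled summit in the body or 1000 bp upstream of a receptor gene, in bp from the gene's own start, with IDR-thresholded and weaker summits shown apart. The Or67a summit at -77 bp is the only IDR summit within 100 bp of a receptor gene's start, and Ir68a at 2450 bp is the only one inside a body.

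Each replicate's list was cut to its 11195 strongest peaks to give the spread. Of the 179 genes, 5, 5 and 6 were then bound in replicates 1, 2 and 3, a mean share of 2.98% ± 0.323 (SD, n = 3). The shares of all protein-coding genes were 35.9%, 33.8% and 36.9%. The difference was -32.6 ± 1.33 percentage points, with receptor genes lower in 3 of 3 replicates (exact two-sided sign-flip permutation test, p = 0.25, the smallest that 3 replicates allow). Or67a, Gr63a, Gr97a, Ir60e and Ir68a were called in every replicate's cut list, and Ir85a in that of replicate 3. The IDR list was derived from replicates 2 and 3, so only the calls in replicate 1 are separate from it.

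The families differed by few genes, and 3 replicates cannot give a p under 0.25, so no order among them could pass the test. The share bound was 1.69% in each replicate for Or genes, 3.33% in each for Gr genes, and 3.33%, 3.33% and 5.00% for Ir genes (3.89% ± 0.962, SD, n = 3). Over the 3 pairs compared, the difference was -1.64 points for Or minus Gr and -2.19 ± 0.962 for Or minus Ir, each lower in 3 of 3 replicates (both exact p = 0.25, adjusted p = 0.375). Gr minus Ir was 0 in replicates 1 and 2 and -1.67 in replicate 3, a mean of -0.556 ± 0.962 (exact p = 1.0, adjusted p = 1.00), and its sign turned to 1.67 with the full lists. One gene is 1.69% of the Or family.

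**Figure D3:**
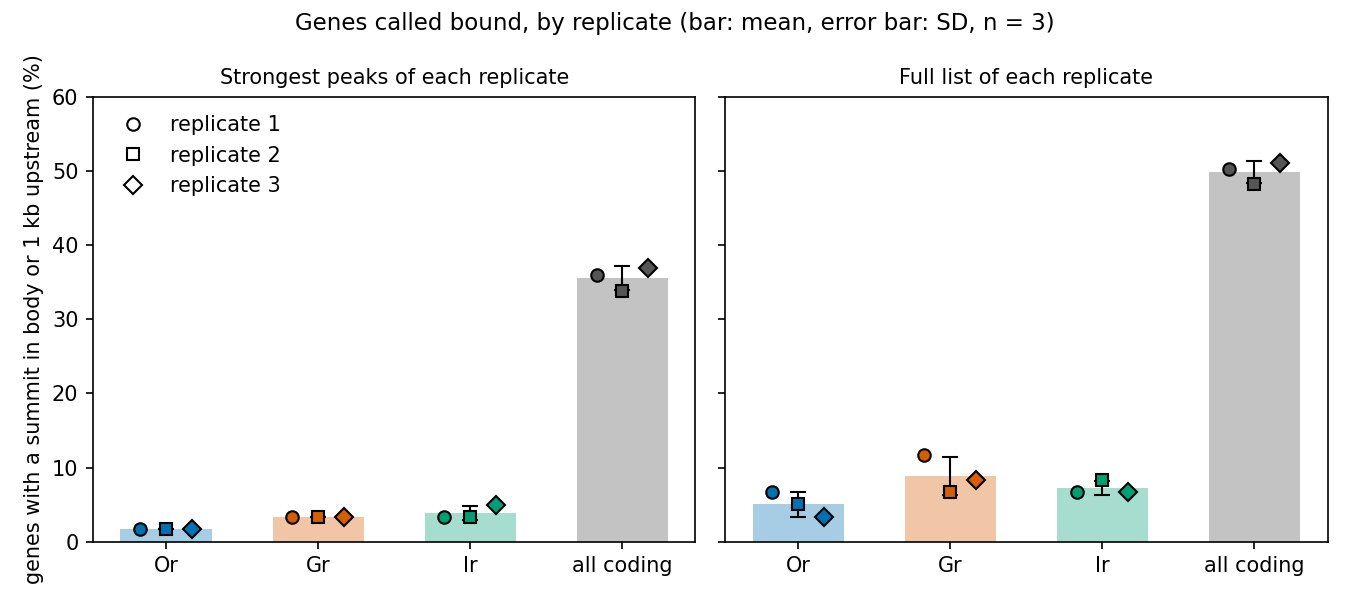
Share of the genes of each family, and of all protein-coding genes, with a summit in the body or 1000 bp upstream in each replicate's own list cut to 11195 peaks and in its full list, in percent. All receptor families lie at or below 11.7% in every replicate, while protein-coding genes lie between 33.8% and 51.1%.

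Lowering the threshold added few receptor genes. Among the 173 genes with no IDR summit, 6 (3.47%) had a summit in the weaker 18805 pooled peaks, against 20.8% of all protein-coding genes without one (1865 of 8955). These were 1 of 58 Or genes (1.72%), 3 of 58 Gr genes (5.17%) and 2 of 57 Ir genes (3.51%). In the whole pooled list of 30000 peaks, 12 receptor genes (6.70%) and 49.2% of protein-coding genes had a summit.

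The 6 weak genes were led by Ir54a and Gr77a. The Ir54a summit, 773 bp upstream and inside coding sequence of Vps50, had signals of 96.4, 74.0 and 96.6 in the replicates. The Gr77a summit, 704 bp upstream and inside an intron of CG13252, ranked 17193 with a signal of 188 and had 68.1, 64.2 and 58.8 in the replicates. Gr93a, which takes part in the taste of caffeine, had summits at ranks 23535 and 25845. These 3 genes were matched within 100 bp in every replicate.

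Or49a, a receptor for the odour of parasitoid wasps, had a summit at rank 25307, 986 bp upstream, matched in replicates 1 and 2. The Ir48b summit at rank 26930 was matched in replicate 2 alone. The Gr94a summit at rank 28667, 4 bp inside the gene, was matched in no replicate. The deposited −log10 q-value was 4.54 at Ir54a and Gr77a, the value of every IDR peak, and fell to 1.32 at Or49a, 1.04 at Ir48b and 0.818 at Gr94a.

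In the replicates' full lists of 30000 peaks, 15, 12 and 11 receptor genes had a summit in replicates 1, 2 and 3, a mean of 7.08% ± 1.16 (SD, n = 3), against 50.2%, 48.2% and 51.1% of protein-coding genes. The difference was -42.7 ± 1.89 percentage points, lower in 3 of 3 replicates (exact p = 0.25). Means were 5.08% ± 1.69 for Or, 8.89% ± 2.55 for Gr and 7.22% ± 0.962 for Ir genes. Or minus Gr was -3.80 ± 1.92 points, lower in 3 of 3 replicates (exact p = 0.25), Or minus Ir was -2.14 ± 1.95 (exact p = 0.5) and Gr minus Ir 1.67 ± 3.33 (exact p = 0.75), with an adjusted p of 0.750 for each, in a design that cannot pass the threshold. Absent from the pooled list but present in some replicates were Or10a and Gr10a, which share 1 locus and its summit, in replicates 1 and 3 at ranks 12608 and 13265. Gr5a, the trehalose receptor, and Or85f were listed in replicate 1 alone, and Or71a in replicate 2 alone. The pooled list was derived from replicates 2 and 3, so replicate 1 did not feed it. In all, 9 genes had a summit in all 3 full lists and 162 had one in none of the 5 lists. The same counts were not made for all protein-coding genes, so these numbers stand without a comparison.

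The members were also grouped by known role, to be read against the 35.8% of protein-coding genes bound. None of the 4 IR coreceptors Ir8a, Ir25a, Ir76b and Ir93a was bound, and the median distance from their start to the nearest IDR summit was 18596 bp. None of the 9 sugar receptors was bound, the Gr64 genes included, and none of the 10 bitter receptors, where Gr93a had its weak summits. None of 26 odorant receptors of larval neurons was bound, with Or49a weak, and none of 10 antennal odorant Irs or 5 Ors for pheromones and geosmin. Of the 3 temperature and humidity Irs, Ir68a was bound, and of the 2 carbon dioxide receptors, Gr63a.

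Genes that work beside the receptors were counted in the same way, against the same 35.8% of protein-coding genes. Of 13 regulators of chemosensory neurons, 4 were bound (30.8%), near that share, and 4, 2 and 4 were in the cut lists of replicates 1, 2 and 3. They were pdm3, a POU factor in the choice of Or genes, sens, a zinc-finger factor of sensory precursors, lz, a Runx factor in olfactory sensilla, and Xbp1, a factor of the unfolded protein response. Of 30 pickpocket channel genes, 5 were bound (16.7%), led by ppk12 at rank 632, with 3, 3 and 6 in the replicates, and ppk11 and ppk16 share 1 locus. Of 51 odorant-binding protein genes, 5 were bound (9.80%), led by Obp99b at 1786 and Obp83ef at 1965. Of 13 ionotropic glutamate receptor genes, 1 was bound (7.69%), Nmdar1 at 5518. Of Orco and the 2 Snmp genes, Snmp2 was bound, and Orco was not.

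The receptor genes were short and lay far from summits. Their median length was 1691 bp against 2166 bp for all protein-coding genes, and 93.3% had a single annotated start, against 73.5%. Among genes between 1378 and 2204 bp, the interquartile range of the receptor genes, 2 of 89 receptor genes (2.25%) and 29.9% of protein-coding genes (829 of 2768) were bound. The longest member, Ir41a with 104437 bp, was unbound, as were Ir40a with 24851 bp and Ir93a with 8237 bp. The starts of Ir41a and Ir40a lay in stretches of 2855545 and 879427 bp with no IDR summit, and that of Ir93a in 76896 bp. The lack of a summit at Ir41a and Ir40a is thus shared with a wide region around them.

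From a receptor gene's start to the nearest IDR summit the median distance was 16231 bp (interquartile range 7054 to 29534), against 4008 bp (295 to 14464) for protein-coding genes. It was 19716 bp for Or, 16860 bp for Gr and 12926 bp for Ir genes. Within 5000 bp of a summit lay 18.4% of receptor genes and 54.1% of protein-coding genes, and beyond 20000 bp 44.1% and 19.3%. Ir41a lay farthest, 784693 bp from the nearest summit, followed by Or35a at 108051 bp and Ir20a at 100303 bp. The summit-free stretch around a receptor gene's start had a median length of 82475 bp, against 28900 bp.

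**Figure D4:**
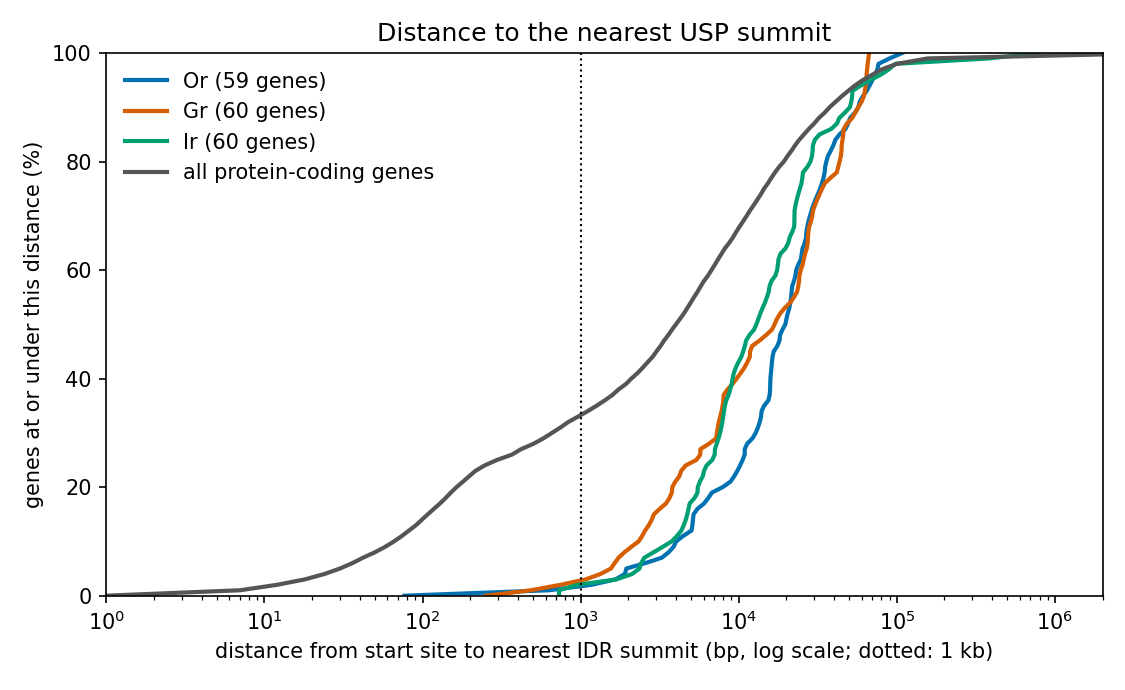
Distance in bp (log scale) from gene start to the nearest IDR summit, as the cumulative share of genes in percent, for Or, Gr and Ir genes and all protein-coding genes. At 5000 bp the curves hold 7 of 59 Or, 15 of 60 Gr and 11 of 60 Ir genes, against 54.1% of all protein-coding genes.

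Receptor genes in tandem clusters had no summit in the pooled list. With bodies within 2000 bp of each other counted as a cluster, 72 members fell into 26 clusters and none was bound or had a weak summit only. The largest cluster, Gr64a to Gr64f, held 6 sugar receptor genes, of which Gr64b overlaps Gr64c and Gr64d overlaps Gr64e. All 6 bound genes were among the 107 members that stood alone. The same split was not made for other protein-coding genes. By arm, 3 were on 3L, 2 on 3R, 1 on 2R and none among the 31 members on 2L or the 25 on X, where 32.4% and 40.2% of protein-coding genes were bound.

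Neighbours of receptor genes were counted against the same 35.8% of protein-coding genes. The nearest protein-coding gene that is no member lay a median of 1148 bp away and was bound for 51 of 179 members (28.5%), and for 49 of the 173 unbound ones (28.3%). These shares are over members and not over distinct neighbours, since nearby members can share 1, as Gr98b, Gr98c and Gr98d share Klp98A. Another protein-coding gene overlapped 39 members, and for 11 of these 39 such a gene was bound. Of the 11 members, 10 were unbound, among them Or71a with Plp, Gr39a with Mondo, Ir48c with ths and Or43b with Cul1. Of the 10, Gr77a was the member with a summit below the threshold in the pooled list.

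Promoters of 300 bp, from 250 bp before to 50 bp after the start, were searched on both strands. Starts were used as annotated, and the bases at the annotated start of Gr94a read ATG. How many members lack an annotated leader was not counted, which limits the comparisons of promoters and of distances to starts. The hexamers listed above occurred in 45.8% of receptor promoters (Or 45.8%, Gr 53.3%, Ir 38.3%) and 32.8% of protein-coding promoters. TATAAA occurred in 46 of 59 Or, 18 of 60 Gr and 33 of 60 Ir promoters, against 45.8% of protein-coding promoters. GAGAG occurred in 20.1% of receptor promoters against 29.7%, CACACA in 12.3% against 19.2%, and TATCGATA in 0.559% against 9.36%. Median GC content was 39.3% against 38.0%. These are descriptions of letters in a window.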

How the data were processed

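Chromatin immunoprecipitation with sequencing was deposited as peak lists in narrowPeak form on dm6. Per the file headers, the authors deposited 1 list per replicate, a pooled list and an IDR-thresholded list, the last 2 derived from replicates 2 and 3 with a control alignment. The IDR peaks equal the 11195 strongest pooled peaks. No label or header read here names the aligner, the peak caller or the IDR threshold, so these are not given here. The deposited signal is the caller's score per peak, not scaled between libraries, and ranks peaks within a list only. The deposited −log10 q-value was used as a description. Read depth is unknown, and each replicate list and the pooled list ended at 30000 peaks.

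Summits were assigned to genes of Ensembl release 115 (BDGP 6.54) on 6 arms with Python 3.11.15, numpy 2.4.6 and pandas 2.3.3. All 213 annotated start codons of members read ATG in the genome used. A replicate matched a summit within 100 bp. Shares were compared over replicates by exact sign-flip tests, adjusted by Benjamini-Hochberg over 3 pairs. The counting code was run on simulated data with summits planted inside gene regions, which checks the code and not whether the calls are right. Replicates have separate biological samples, per the labels. Members, role lists and companion lists were chosen with earlier results of these data known. Named genes are those with a summit in the IDR list or a replicate's cut list, up to 8 weaker ones per family, and up to 4 examples per role list. The symbol fer1 was not found, which left 13 of 14 regulators. Alternatives changed the window, assignment, list and replicates.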

Additional observations from a re-analysis of the deposited data

How the results depend on the processing

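The count of bound receptor genes, 6, depended on the window and the assignment. With no upstream window it was 1 (Or 0, Gr 0, Ir 1), against 23.2% of protein-coding genes. With 5 kb upstream it was 28 (Or 6, Gr 12, Ir 10), against 48.1% of protein-coding genes. Within 500 bp of a start it was 2 (Gr 1, Ir 0), against 28.0%. With summits given to the nearest coding start only, it was 11 (Or 4, Gr 4), against 32.1%. Overlap of peak intervals gave 8, with Or 2, against 38.0%. The strongest 5597 peaks gave 3 (Gr 0), against 21.9% of protein-coding genes. Leaving out summits at the starts of genes outside the families gave 3 (Gr 0). Requiring a match in both other replicates' cut lists, without each replicate in turn, gave 4 to 5 (Gr 1 to 2, Ir 2, Or 1), with Ir85a lost each time and Gr97a lost without replicate 1 or 3. For protein-coding genes the same requirement gave 29.7% to 31.9%. One list per replicate and any biotype gave 5 to 6, against 33.8% to 36.9%.

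The count of genes with only weak summits was 6 of 179 (3.35%), against 13.4% of all protein-coding genes, here with bound genes in the denominator. With no upstream window it was 2 (Or 0, Ir 0), against 11.6%. These were Gr94a and Gr97a, whose IDR summit is upstream. With a match in all replicates' full lists it was 3 (Or 0, Ir 1), against 7.93%. With 5 kb upstream Or was 4 and Ir 1, against 11.2% of protein-coding genes. With interval overlap Or was 3, against 12.8%. Without each replicate in turn the counts were 3 to 4 (Or 0 to 1, Gr 2, Ir 1), against 8.64% to 10.5%. The 7 summits of bound genes were matched in all 3 cut lists in 5 cases at 100 bp (71.4%). The count was 4 at 50 bp (57.1%) and 6 at 200 bp (85.7%). Of all IDR summits, 71.2% were matched at 100 bp, 57.7% at 50 bp and 78.5% at 200 bp. Gr minus Ir was -0.556 points, 1.67 with full lists (reversed) and -0.833 to 0 without each replicate. Without each replicate Or minus Ir ranged from -2.47 to -1.64 and receptor minus protein-coding genes from -33.3 to -32.1, and Or minus Gr was -1.64. With full lists they were -2.14, -42.7 and -3.80. The cause of these shifts was not tested. Unknown depth and lists ended at a fixed length limit what the absence of a peak shows.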
